A study of Homo sapiens with 18 samples.

Results

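The genes described here are 10 core members of the G1 cell cycle switch, out of 22336 genes with an mRNA-seq level in LNCaP cells, an androgen-responsive line of human prostate cancer. They are the cyclins CCND1, CCND2, CCND3, CCNE1 and CCNE2, the kinases CDK4, CDK6 and CDK2, the pocket protein RB1 and the transcription factor E2F1. All 10 were found by symbol in the table. To them were added the regions with a centre within 50 kb of any of their annotated start sites on hg19. These were 53 of the 94527 enhancers called by WHG-STARR-seq, the whole-genome form of the STARR-seq reporter assay, and 37 of the 51909 chromatin sites measured by ATAC-seq.

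WHG-STARR-seq measures which pieces of sheared human DNA, carried on a reporter plasmid, raise the transcription of that plasmid after it enters the cell. One input plasmid library (n = 1) and 2 output replicates were sequenced, the output from cells harvested 72 h after electroporation in medium with charcoal-stripped serum, which is poor in androgens. ATAC-seq, which marks accessible DNA, and mRNA-seq were each done on 3 cultures that received 100 ng/ml of the histone deacetylase inhibitor trichostatin A (TSA) for 24 h and on 3 cultures that received only the vehicle DMSO for that time, and 3 untreated cultures were measured by mRNA-seq, 18 samples in all. The TSA and DMSO cultures of both assays were kept in charcoal-stripped serum as well. None of the values used here belongs to a single library. The expression table gives 1 average per gene, the ATAC-seq peak lists hold pooled libraries of each condition and the enhancers were called on pooled output, so depth and replicate error are unknown and no test of a difference between conditions could be made.

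Passage through G1 is driven by D-type cyclins, which bind CDK4 or CDK6, and then by E-type cyclins, which bind CDK2. Both kinds of complex phosphorylate RB1, which otherwise holds E2F factors inactive at the promoters of genes for DNA replication. E2F1 and the E-type cyclins are themselves among the targets of E2F, which makes the switch self-reinforcing. Loss of RB1 is known from advanced prostate tumours.

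Stretches of 160 bases directly upstream of a start site are shown first. Each of the 10 genes had at least 1 start site in an ATAC-seq site, for CCND3 with peaks under TSA only. Some of these promoters also carry the letters by which the pathway is usually recognised. The stretches are read 5' to 3' in the direction of the gene from GRCh37, the sequence of hg19. Capitals mark exact matches on either strand. The letters searched were TTTCCCGC, TTTGGCGC, TTTCGCGC or TTTGCCGC for an E2F motif. The letters of the GC box were GGGCGG and those of the E-box, to which the MYC family binds, CACGTG. The last motif marked is the CCAAT box.
CCND1 upstream, chr11:69455764-69455923, + strand: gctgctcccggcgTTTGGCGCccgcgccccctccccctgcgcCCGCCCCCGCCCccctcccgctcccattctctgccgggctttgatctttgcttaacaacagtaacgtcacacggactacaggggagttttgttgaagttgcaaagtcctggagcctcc
RB1 upstream, chr13:48877720-48877879, + strand: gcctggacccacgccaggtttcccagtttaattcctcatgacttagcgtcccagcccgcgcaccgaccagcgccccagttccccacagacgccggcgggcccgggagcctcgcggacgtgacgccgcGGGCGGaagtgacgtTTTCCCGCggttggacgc
E2F1 upstream, chr20:32274192-32274351, - strand: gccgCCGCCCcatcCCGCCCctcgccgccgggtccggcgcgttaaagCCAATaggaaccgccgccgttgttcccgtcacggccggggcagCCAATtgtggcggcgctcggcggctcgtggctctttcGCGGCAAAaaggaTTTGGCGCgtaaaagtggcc
CDK4 upstream, chr12:58146231-58146390, - strand: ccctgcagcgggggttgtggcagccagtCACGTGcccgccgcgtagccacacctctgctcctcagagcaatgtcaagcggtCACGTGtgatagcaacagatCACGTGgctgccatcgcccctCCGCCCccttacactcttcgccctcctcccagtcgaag

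The CCND1, RB1 and E2F1 stretches were chosen for their E2F letters and that of CDK4 for its 3 E-boxes. Counted from the start, the E2F match began at base -147 in CCND1, at -18 in RB1, and at -33 and -20 in E2F1. The CDK4 stretch also lay inside an enhancer of 2.37-fold.

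The summits of 3 enhancers are shown next, with 160 bases each on the plus strand. They are the strongest enhancers within 50 kb of CCND2 and of CCND3, and the enhancer in the CDK6 intron that lay in an ATAC-seq site. The one listed under CCND2 lay 0.428 kb from a start of TIGAR, its nearest gene. Capitals mark AP-1 letters (TGAGTCA), which were found in the CCND3 and CDK6 windows. None of the other motifs searched matched in these 3 windows.
CCND2 enhancer at +47.9 kb, chr12:4430670-4430829, + strand: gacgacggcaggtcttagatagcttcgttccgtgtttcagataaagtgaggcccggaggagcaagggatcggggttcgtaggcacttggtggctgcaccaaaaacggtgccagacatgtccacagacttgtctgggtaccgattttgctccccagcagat
CCND3 enhancer at -20.0 kb, chr6:41929550-41929709, + strand: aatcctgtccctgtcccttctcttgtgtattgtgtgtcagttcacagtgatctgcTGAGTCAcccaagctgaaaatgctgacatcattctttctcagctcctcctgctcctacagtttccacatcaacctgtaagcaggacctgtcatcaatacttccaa
CDK6 enhancer at +24.0 kb, chr7:92439177-92439336, + strand: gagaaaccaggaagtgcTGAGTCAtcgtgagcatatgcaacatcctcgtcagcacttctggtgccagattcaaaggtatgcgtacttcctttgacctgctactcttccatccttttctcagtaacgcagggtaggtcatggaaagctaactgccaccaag

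Expression levels are the authors' averages in log2 CPM (counts scaled to library size), divided here by the merged exon length so that genes can be set side by side. The averages come from the fit of TSA against vehicle, so each mixes TSA-treated with vehicle cultures and is not a baseline level. Whether the untreated cultures entered is unknown. Per kb, CDK4 (chr12:58141510-58146230), the kinase that partners D-type cyclins, had the highest level of the 10 at 5.66 log2 CPM per kb. CCND1 (chr11:69455924-69469242), the D-type cyclin most often amplified in cancers, followed at 5.29. These levels were above those of 95.9% and 94.6% of the 20839 genes with a length. Before division by length they stood at 157 and 186 CPM.

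The other 2 D-type cyclins were lower. CCND3 (chr6:41902672-42018095) had a level of 2.62 log2 CPM per kb, so that the CCND1 level was 6.35 times that of CCND3. CCND2 (chr12:4382928-4414519) stood at -0.72 log2 CPM per kb and 4.85 CPM, and the CCND1 level was 64.4 times that of CCND2. With the longest transcript as length, the ratio of CCND1 to CCND3 came to 2.96 and that of CCND1 to CCND2 to 62.0. CCND1 therefore had the highest level of the D-type cyclins with either length, while its lead over CCND3 was smaller by the second.

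Among the kinases, the order was CDK4, CDK2 and CDK6. CDK6 (chr7:92234235-92465887), the other partner of D-type cyclins, had the lowest level of the 10 at -0.78 log2 CPM per kb, with 7.12 CPM. The level of CDK4 was 87.1 times that of CDK6 per kb, or 138 times by the longest transcript. CDK2 (chr12:56360605-56366573), which E-type cyclins activate, was at 2.69 log2 CPM per kb, above 68.7% of genes. CCND2 and CDK6 were the only 2 of the 10 below the median of all ranked genes, 1.17 log2 CPM per kb, and both remained above 1 CPM.

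CCNE1 (chr19:30302898-30315219) and CCNE2 (chr8:95891998-95908906), the E-type cyclins, were at 2.33 and 1.64 log2 CPM per kb, a ratio of CCNE2 to CCNE1 of 0.619. RB1 (chr13:48877880-49056026) stood at 3.42 log2 CPM per kb, above 78.4% of genes. E2F1 (chr20:32263283-32274191) was at 2.13, and the level of RB1 was 2.44 times that of E2F1. In all, 8 of the 10 exceeded the median of all genes and 3, CDK4, CCND1 and RB1, the upper quartile of 3.16. Among genes of at least 1 CPM, 5 of the 10 were above the median. Whether neighbours in this order, such as CDK2 and CCND3, differ beyond replicate spread cannot be said, since each is 1 average, and by the longest transcript CCND3 ranked above RB1 and CDK2. In such bulk cultures, fewer cells in a given phase and less RNA per cell cannot be told apart.

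**Figure D1:**
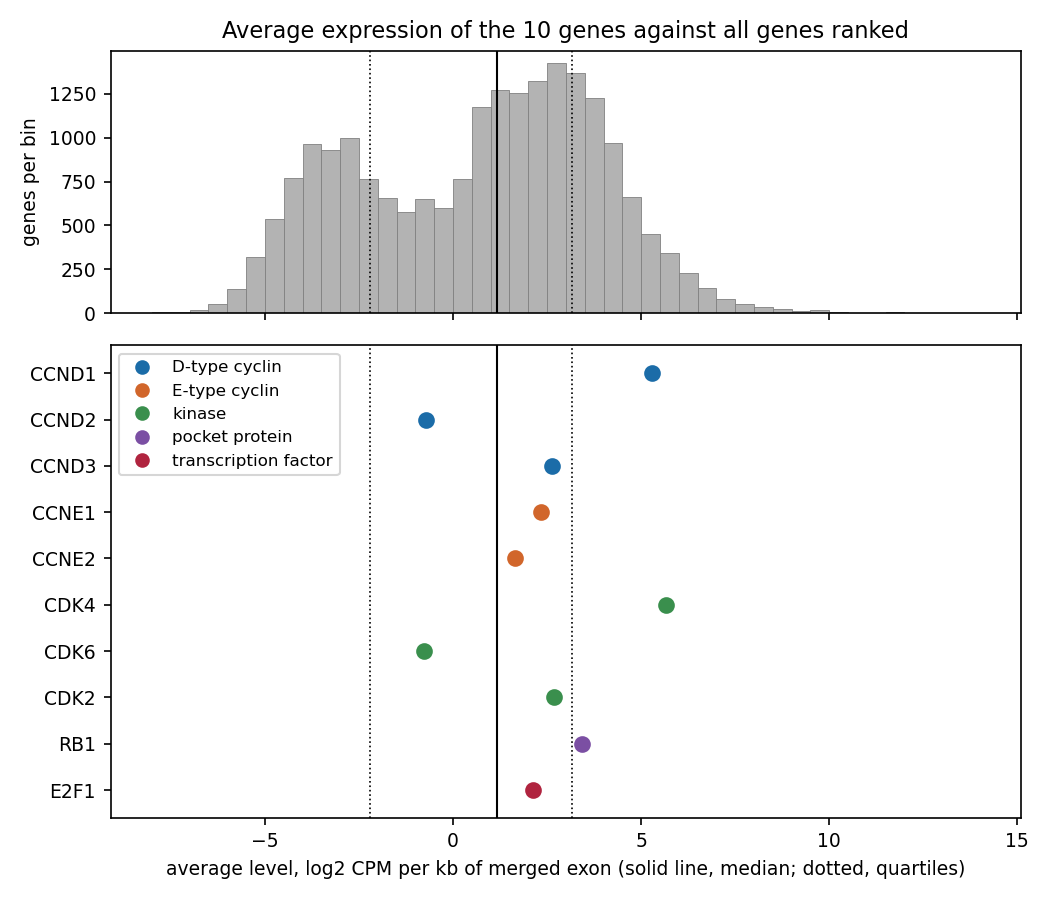
Average level of each of the 10 genes in log2 CPM per kb of merged exon (lower panel, points coloured by role) under the histogram of all 20839 ranked genes, with the number of genes per bin on the upper vertical axis; the solid line is the median and dotted lines are quartiles. CDK4 at 5.66 and CCND1 at 5.29 lie far to the right, and CCND2 at -0.72 and CDK6 at -0.78 are the 2 genes left of the median line.

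The identity of the cells was checked with marker genes. All 8 luminal prostate genes reported here exceeded the median of all ranked genes, with KLK3 at 5.82 log2 CPM per kb and HOXB13 at 7.2. Of the 15 markers of other cells, 3 did as well, KRT5 at 4.18, VIM at 3.51 and COL1A1 at 3.6 log2 CPM per kb. PECAM1, 1 of the 15, had no level per kb and could not be ranked. Defining markers of the same lists were low, with TP63 at -4.79, DCN at -5.9, PTPRC at -5.84 and CDH5 at -4.68 log2 CPM per kb. The part of the 3 high genes in the values above was not tested.

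Enhancers were found within 50 kb of every one of the 10 genes. Background shares here and below are over the 20786 genes with a start site or over the enhancers near them, and 96.0% of genes had at least 1 enhancer. Counts per gene ran from 2 at CCNE2 to 12 at CCND3, with a median of 5 against 4 for all genes. CCND3 is annotated with 7 start sites in 2 clusters far apart, which widens the searched region. A closed enhancer, meaning one outside the DNase I sites of LNCaP cells, lay near all 10 genes (background 90.5%). An open one lay near 7 of the 10, against 56.7% of all genes and 64.9% of genes of at least 1 CPM. CCNE2, CDK6 and RB1 had closed enhancers only.

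Of the 53 enhancers 21 were open, a share of 39.6%, where 20.2% of all enhancers near genes were. The folds, which are output over scaled input fragments at the summit, ran from 1.78 to 8.23 with a median of 2.70. The median over all 49201 enhancers near genes was 3.02. Just 2 of the 53 reached 5-fold, where 7.16% of all enhancers near genes did. At the summits 29 to 187 output fragments were recovered from the fold and p-value. The authors collapsed identical fragments only within each separately indexed PCR library before pooling, so the same fragment can enter more than once. The 95% intervals given with folds are exact Poisson intervals of these output fragments. They cover counting error of independent fragments alone, and not repeated fragments, the input or the spread between replicates.

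Most open enhancers were not at the 10 genes themselves. For 28 of the 53, the nearest start site of any gene was that of the member, and of these 6 were open and 22 closed. The other 25 lay closer to another gene, 15 of them open and 10 closed. By position, 14 had their centre in a promoter (13 open), 27 in an intron (22 closed), 6 in an exon and 6 between genes. Only 8 lay within 5 kb of a start of their own member, 4 of them open.

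**Figure D2:**
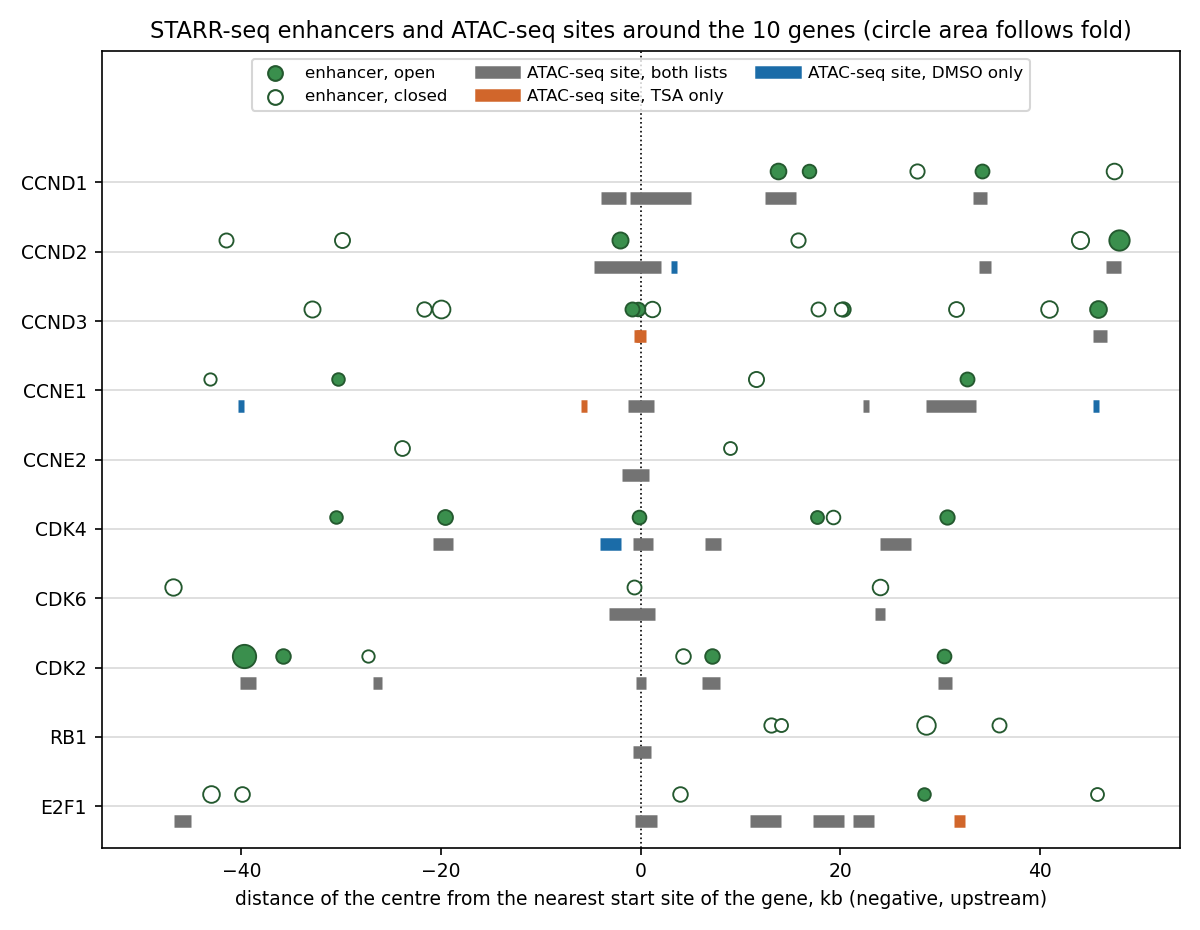
Distance in kb of each enhancer (circles, filled for open and empty for closed, with area growing with fold) and each ATAC-seq site (bars, drawn to length and coloured by peak list) from the nearest start site of each gene, negative upstream. The enhancers of CCND1 and RB1 lie all downstream, RB1 has no filled circle, and each gene has a site at distance 0, which for CCND3 are 2 sites drawn on top of each other, 1 at each start cluster.

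CCND1 had 5 enhancers, all downstream of its start. The strongest, chr11:69469422-69470135 at +13.8 kb, just past the end of the gene in an intron of LTO1, was open and gave 3.37-fold (95% interval 2.85 to 3.97, 144 output fragments over 42.0 scaled input fragments). It lay in an ATAC-seq site of both conditions, and its central 160 bases held forkhead letters (TGTTTGC). An open one at +34.2 kb (2.48-fold) was at the LTO1 promoter. The strongest closed one, at +47.4 kb between genes, gave 3.32-fold (2.44 to 4.42). The intervals of the strongest open and closed enhancers of CCND1 overlapped widely.

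CCND2 had the highest fold of the D-type cyclins. At +47.9 kb, in the first part of TIGAR, a gene for a regulator of glycolysis, the open enhancer chr12:4430385-4431229 gave 6.10-fold (4.94 to 7.45, 94 output fragments over 14.6). It lay 0.428 kb from a TIGAR start, so that the nearest gene was not CCND2. A closed enhancer at +44.0 kb in the same gene gave 4.15-fold (3.14 to 5.38). Nearer to CCND2, an open enhancer at -2.08 kb in the antisense gene CCND2-AS1 gave 3.55-fold (2.65 to 4.67) within the ATAC-seq site that covers the CCND2 start.

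CCND3 carried 12 enhancers, 8 of them closed and 7 nearest to CCND3 itself. Its strongest, chr6:41929226-41929896, was a closed enhancer inside a CCND3 intron at -20.0 kb from the downstream start cluster, with 4.51-fold (3.73 to 5.42, 113 output fragments over 24.3). The strongest open one, 3.91-fold (2.89 to 5.19), was at the USP49 promoter at +45.8 kb. At the upstream CCND3 start, which lies next to the TAF8 start, 2 open enhancers gave 2.34-fold and 2.53-fold.

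The E-type cyclins had 6 enhancers in all, none above 3.05-fold. CCNE1 had 4, all nearest to CCNE1, of which a closed one over its last exon at +11.6 kb was highest at 3.05-fold (2.17 to 4.17). The open enhancer at +32.7 kb between genes gave 2.50-fold (1.92 to 3.21) and lay in the largest ATAC-seq site near CCNE1. CCNE2 had 2 closed enhancers, at -23.9 kb with 2.92-fold (2.11 to 3.93) and at +8.91 kb in its own intron with 2.02-fold (1.38 to 2.87). No summit of the 2 CCNE2 enhancers had more than 41 output fragments.

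By DNase I, the enhancers near CDK4 and those near CDK6 differed in chromatin state. The DNase I scores of the open ones near CDK4 ran from 0.0389 to 0.718. In ATAC-seq sites lay 2 of the 6 enhancers near CDK4 and 2 of the 3 near CDK6. CDK4 had 5 open enhancers of 6, none above 2.94-fold (2.37 to 3.61, at -19.6 kb). Its closed one at +19.3 kb in AGAP2 gave 2.35-fold (1.83 to 2.98), and the only one nearest to CDK4 covered its own start: chr12:58146026-58146681 at -0.124 kb, 2.37-fold (1.87 to 2.95). CDK6 had 3, all closed by DNase I, at -46.8 kb (3.72-fold, 2.61 to 5.16), at +24.0 kb in its intron (3.30-fold, 2.26 to 4.66) and at -0.651 kb in its promoter (2.49-fold, 1.85 to 3.29). The last 2 of these lay in ATAC-seq sites listed under both TSA and DMSO, so that the 2 measures of openness did not give the same state there. At the summits at -46.8 kb and +24.0 kb the scaled input was at 8.40 fragments, the lowest value among the 53. In all, 3 of the 53 had this same value, a floor of the input.

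CDK2 lay near the strongest of the 53 enhancers. The open enhancer chr12:56320575-56321322 at -39.7 kb gave 8.23-fold (7.09 to 9.49, 187 output fragments over 21.9), and its interval did not overlap that of any other member enhancer except the 6.10-fold one near CCND2. It was at the promoter of PYM1, a factor of the exon junction complex, 0.0530 kb from that start. None of the 6 enhancers near CDK2 was nearest to CDK2, and the closed one over a CDK2 exon at +4.27 kb gave 2.80-fold (2.22 to 3.48).

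RB1 had 4 enhancers, all closed, all inside its gene downstream of the start, and none in an ATAC-seq site. Their folds ran from 2.07 to 4.92, and the highest of the 4 is not described further here. The one farthest from the start, chr13:48913487-48914035 at +35.9 kb, gave 2.52-fold (1.90 to 3.29, 52 output fragments over 20.0). Those at +13.1 kb (2.66-fold) and +14.1 kb (2.07-fold) lay in an exon of the pseudogene PPP1R26P1, which sits in an RB1 intron. E2F1 had 5, of which 4 were closed. Its open one at +28.4 kb, in an exon of NECAB3, gave 1.91-fold (1.50 to 2.39). Its highest, 3.86-fold (2.92 to 5.02) at -43.0 kb, was nearer to ZNF341, and the one inside the E2F1 gene, at +3.96 kb, gave 2.79-fold (2.14 to 3.57).

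**Figure D3:**
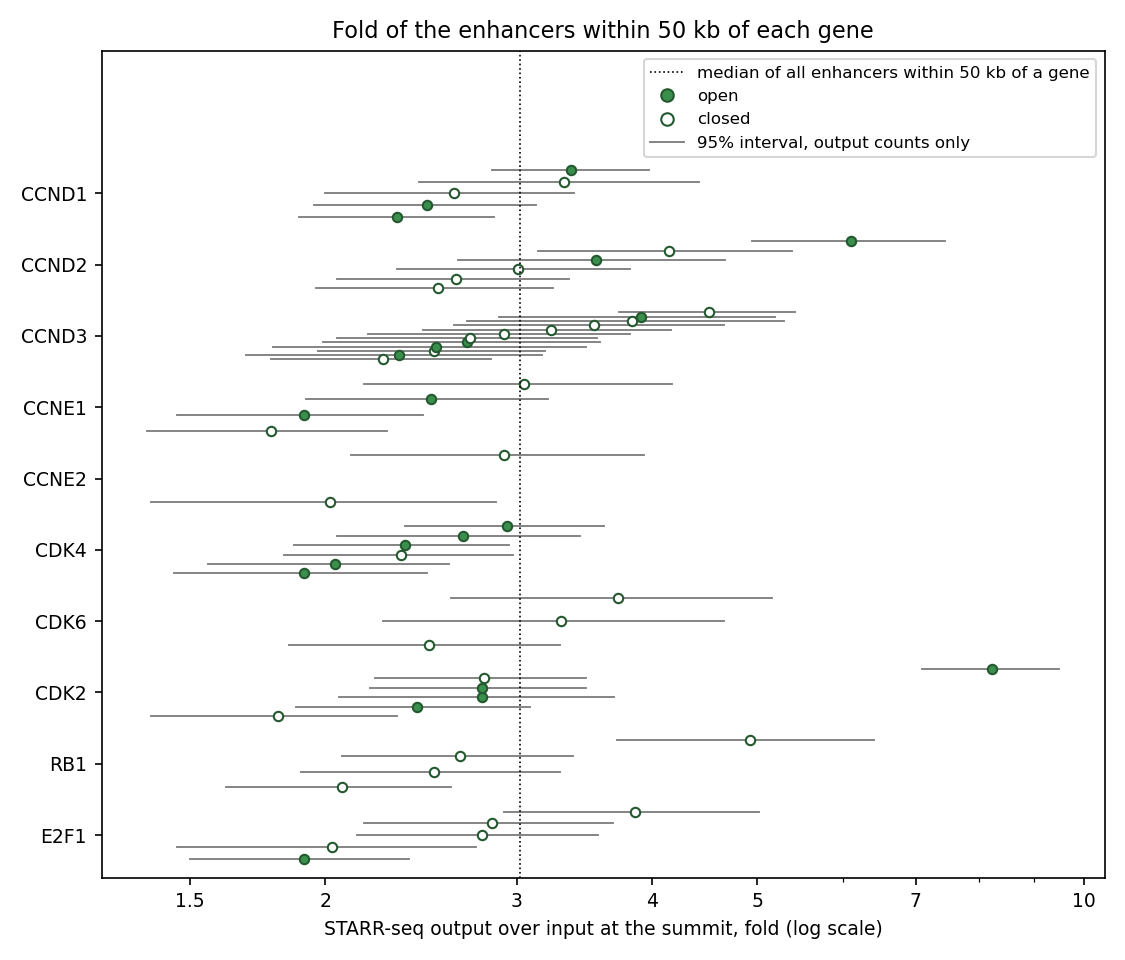
Fold of output over input at the summit (log axis) for every enhancer within 50 kb of each gene, with filled points for open and empty points for closed enhancers and bars for 95% intervals of the output counts alone; the dotted line is the median of all enhancers near genes, 3.02. The 8.23-fold point near CDK2 and the 6.10-fold point near CCND2 stand to the right of the others, and most intervals span the dotted line.

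Repeated sequence was present at some of these summits. In 15 of the 53 windows of 300 bases, at least 1 of the 277 words of 24 bases occurred at 10 or more places in the genome, where 37.7% of all enhancer windows near genes had such a word. These were 14 of the 32 closed and 1 of the 21 open windows. Among all enhancers near genes, 45.3% of closed and 8.03% of open windows had one. The strongest enhancer held such a word at RB1, E2F1, CDK6 and CCNE1, with 55 words at E2F1, 115 at CDK6 and 7 at CCNE1, and held none at CCND1, CCND2, CCND3, CCNE2, CDK4 and CDK2. The 4.15-fold enhancer near CCND2 had the most, 212 words. The authors kept only reads with 1 alignment, and the effect of repeats on these folds was not tested.

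Accessible chromatin in the treated and vehicle cultures was compared next. At least 1 start of each of the 10 genes was inside an ATAC-seq site, which held for 60.7% of all genes and 80.7% of genes of at least 1 CPM. Of the 37 sites near the 10 genes, 29 overlapped a peak in both pooled lists. TSA alone had a peak at 4 sites (background 21.9%) and DMSO alone at 4 (background 16.0%). The score compared below is the highest F-seq peak density in the site, and TSA over DMSO ratios are given relative to the median ratio of all shared sites, 1.07.

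Both start clusters of CCND3 had a peak only under TSA, with scores of 0.0418 at the downstream start and 0.0381 at the start next to TAF8. The lowest scores in the lists were 0.0377 for TSA and 0.0390 for DMSO. Both CCND3 peaks were therefore close to the scores below which no peak was listed. The other peaks seen only with TSA were at -5.69 kb from CCNE1 (0.0396) and at +31.9 kb from E2F1 (0.0412).

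Peaks seen only with DMSO lay at +3.33 kb in CCND2 (0.0412), at -2.99 kb from CDK4 (0.0440), and at -40.0 kb (0.0553) and +45.6 kb (0.0401) from CCNE1. The CCNE1 site at -40.0 kb had the highest score of the 8 sites in 1 list. CCNE1 was the gene with peaks of both kinds. None of the sites with a peak in 1 list overlapped an enhancer except the CCND3 site at the TAF8 start, which overlapped 2. The 2.53-fold one of these met only the edge of the site, with its summit outside it.

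Relative score ratios at the 29 shared sites ran from 0.646 to 1.48 with a median of 0.984, and 13 exceeded 1. None reached 1.5 (background 7.26%) and 2 were at or below 1/1.5 (background 5.70%). The highest ratio was at the RB1 start, where the score was 0.105 under TSA and 0.0668 under DMSO. Before division by the median ratio, this site was at 1.58. Next came the intronic CDK6 site at +24.0 kb, with 0.0586 against 0.0407 and a relative ratio of 1.35, and the PYM1 promoter site near CDK2, with 0.0584 against 0.0407 and 1.34. Both of these sites held an enhancer.

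The lowest ratio was at the CCND1 start. The highest score there was 0.0631 under TSA and 0.0913 under DMSO, a relative ratio of 0.646. This site is 6.08 kb wide, the TSA list held more than 1 peak in it, and with the scores summed the relative ratio turned to 1.25. The other low site, at +22.6 kb from CCNE1, had 0.0402 against 0.0574 and a ratio of 0.656. At the remaining starts the relative ratio was 1.14 for CCND2, 0.981 for CCNE1, 1.10 for CCNE2, 0.981 for CDK4, 0.801 for CDK6, 0.812 for CDK2 and 0.984 for E2F1. The start of CCNE1 had the highest score of the start sites in either list, 0.211 and 0.201.

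**Figure D4:**
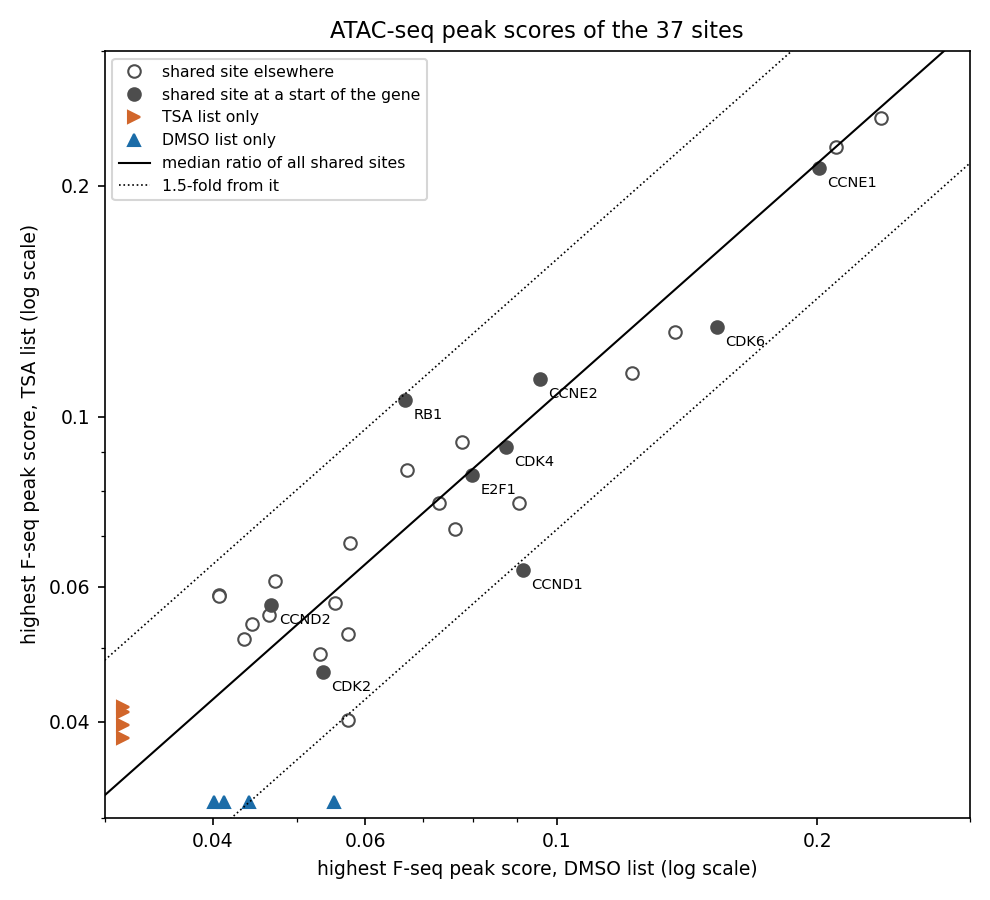
Highest F-seq peak score under TSA against that under DMSO at the 37 sites (log axes), with filled points for shared sites at a start of the gene, empty points for other shared sites, and triangles on the axes for sites in 1 list only; the solid line is the median ratio of all shared sites, 1.07, and dotted lines are 1.5-fold from it. RB1 lies just under the upper dotted line, CCND1 on the lower side just past the lower one, and all 8 triangles lie at 0.0553 or less.

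Enhancer and ATAC-seq maps met at 15 of the 53 enhancers (background 11.8%), 13 of them open and the 2 at CDK6 closed. The average signal of the start sites, as log2 CPM per kb of site, was above that of 71.8% to 93.1% of all sites except at CCND1 (54.7%) and CCND2 (26.0%), whose sites are the widest of the starts at 6.08 and 6.65 kb.

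Promoter letters were counted from 1000 bases before to 100 bases after each start, on both strands. E2F letters were in 4 of the 10, CCND1, CCNE1, RB1 and E2F1, where 10.9% of all promoters had them. GC boxes were in all 10 (background 74.0%) and CCAAT in 9, with CCND1 the exception (background 81.1%). E-boxes were in 6 (background 25.2%), of which CDK4 had 4 around its start. Forkhead letters, TGTTTAC or TGTTTGC, were in 5 (background 32.1%), AP-1 in the 2 promoters of CCND1 and CCND3 (background 19.4%) and the CRE letters TGACGTCA in 0 (background 4.04%).

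The same letters were counted in the enhancers. In windows of 300 bases around the summits, 0 of 53 had E2F letters (background 0.898%) and 0 had a CRE (background 0.441%). GC boxes were in 16 (background 10.8%), CCAAT in 15 (background 31.3%) and E-boxes in 7 (background 4.98%). AP-1 was in 5 (background 7.04%) and forkhead in 3 (background 8.51%). The median GC content was 55.0%, against 49.7% for all enhancers near genes, with 58.0% in open and 52.3% in closed windows. The GC box and E-box are themselves rich in G and C, so these counts and the GC content move together. Matches are letters in the reference and not measured binding.

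Other genes of the pathway were given by a list of 39, which holds related pocket proteins and E2F factors, activators and inhibitors of the kinases, degradation factors, S-phase cyclins and E2F targets. Of these, 28 exceeded the median level of all genes. At least 1 start lay in an ATAC-seq site for 38 (background 60.7%, and 80.7% of genes of at least 1 CPM). The highest levels were those of CDKN1A, the inhibitor p21, at 6.03 log2 CPM per kb and PCNA, the sliding clamp of replication, at 5.59. The lowest were E2F7 at -0.71 and E2F2 at -0.68. An enhancer was near 38 of them (background 96.0%), SKP2 being the one without, and of their 181 enhancers 26.0% were open (background 20.2%).

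Enhancers of 5-fold or more lay near 10 of the 39 (background 27.4% of all genes), with CDKN1A far ahead at 36.6-fold, followed by E2F3 at 9.59, PCNA at 8.45, E2F7 at 8.42, CUL1 at 8.02, FBXW7 at 7.26, RRM2 at 6.85, CDK1 at 5.64, E2F6 at 5.21 and E2F5 at 5.08. Of the 10 genes described here, 2 had such an enhancer, CDK2 and CCND2. E2F letters were in 18 of the 39 promoters (background 10.9%) and in 7 of the 10 E2F targets of the list. That group was chosen as targets and so is not independent evidence of the motif.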

How the data were processed

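Enhancer, chromatin and expression values were taken from tables the authors deposited for LNCaP cells, and the 6 tables hold pooled or averaged values. For WHG-STARR-seq, read pairs were placed on hg19 by the authors with Bowtie and kept where unique. Duplicates were collapsed with Picard within each separately indexed PCR library of the output, and those between libraries were kept. The pooled output of both replicates was given to MACS2 at a q-value of 0.05 against the input. The deposited lists give a fold (a ratio of output over input) and −log10 p-values and q-values, and a score of the DNase I site for open enhancers. For ATAC-seq, the authors aligned with Bowtie, then Bowtie2 after cutadapt, removed duplicates with Picard, shifted read starts to the centre of the transposon and called F-seq peaks on pooled libraries of each condition. Those lists hold an F-seq score per peak whose scaling between lists is unknown. The authors' edgeR tables hold an average in log2 CPM per gene (TopHat alignment, RefSeq genes) and per merged ATAC-seq site. They also hold the authors' own fold changes, likelihood ratios and p-values or q-values of TSA against vehicle, which were not used, so no change in expression is reported. The sources used here do not give tool versions or list the libraries behind each average.

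Analyses ran in Python 3.11.15 with pandas 2.3.3, numpy 2.4.6 and pysam 0.24.0, intervals in scipy 1.17.1 and figures in matplotlib 3.10.9, and samtools 1.23.1 indexed the genome. Start sites were those of the basic GENCODE set on GRCh37, with older symbols matched through RefSeq synonyms. Of 22336 genes 20839 were matched and 20786 had one of 58184 start sites. Regions were assigned by their centre within 50 kb of a start, overlap meant at least 1 base, and distances are signed by the strand of the gene. Promoters ran from 1000 bases upstream to 100 downstream. Output and scaled input fragments were recovered from the deposited fold and p-value, with a MACS2 pseudocount of 1, and the recovery was tested on simulated data. Score ratios were divided by the median of all shared sites, and 1.5-fold was the limit for counting one. No test was run, because each condition has 1 pooled or averaged value.

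All 10 members are named, with their strongest open and closed enhancers (except 1 of RB1), the sites at their starts and every site in 1 list. From the wider list were named the 2 highest and 2 lowest levels and each gene with an enhancer of 5-fold or more. Some markers, a motif and an enhancer are not reported here. Members and lists were chosen with earlier results of these data known. Further enhancers, the repeat count and neighbouring genes were added after their values were seen.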

Additional observations from a re-analysis of the deposited data

How the results depend on the processing

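Of 39 values recomputed under an alternative, 21 stayed within 1.5 times the reported count or within its interval and 18 moved. The members above the median level numbered 5 when only genes of at least 1 CPM were ranked. Enhancers near a member numbered 26 at 25 kb, 99 at 100 kb and 28 when the member had to be the nearest gene. The open share fell from 39.6% to 24.5% when a DMSO ATAC-seq peak defined openness. The background of 20.2% is by DNase I and does not match that definition. An ATAC-seq site of either condition was overlapped by 11.8% of all enhancers near genes. Sites in both lists numbered 19 at 25 kb. Sites with a DMSO peak alone numbered 2 at 25 kb, 8 at 100 kb and 2 among the 30000 highest scores of each list. Without division by the median ratio, 1 site was at or over 1.5-fold and 0 at or under it, and with summed scores 1 was at or under it.

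The RefSeq promoter table on GRCh38.p14, with 250 bases upstream and 50 downstream, covered 6 of the 10 members, and its RB1 window was at a start inside that gene. It held E2F letters in 1 member (background 5.40% of its promoters), AP-1 in 0 (5.34%) and GC boxes in 5 (65.2%). CCAAT was in 2 (42.4%), E-boxes in 2 (11.0%) and forkhead letters in 1 (7.94%). In the main windows of these same 6 members, the counts in that order were 3, 1, 6, 6, 4 and 3. Fewer members and shorter windows enter the RefSeq count by construction. The causes of the other differences were not tested.

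No paired analysis was possible because the values used are pooled or averaged over replicates, which also means that leaving out a replicate was not run. Depth per library is unknown, and the intervals of the folds cover counting error of the pooled output alone. The lowest scores in the lists, 0.0377 for TSA and 0.0390 for DMSO, limit what a peak in 1 list can show.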
